A study of Macaca mulatta with 27 samples.

Results

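BMP2, BMP4, BMP5, BMP6 and BMP7 encode secreted ligands of the bone morphogenetic protein (BMP) family, NOG encodes the BMP antagonist noggin, and ID1, ID2, ID3 and ID4 encode the inhibitor of DNA binding proteins. These 10 genes were taken by symbol from the 17967 symbols of the count tables, and all 10 were found. Their RNA was measured in 27 libraries from rhesus macaque cells: 6 libraries of primed cells and 3 libraries for each of 7 protocols meant to bring primed cells toward naive pluripotency. All cells came from LyonES-tGFP-(S3), 1 clonal embryonic stem cell line that carries a tauGFP transgene under the ubiquitous CAG promoter and a lentiviral STAT3-ERT2 transgene, a STAT3 fusion that tamoxifen switches on. TL2i combined tamoxifen and LIF with inhibitors of MEK and GSK3β. In TL-CDK8i (TL-CDK8/19i in the study) these inhibitors gave way to CNIO-47799, which blocks CDK8 and CDK19, with tamoxifen kept. E-NHSM, NHSM-v, 4i/L/b, t2iLGöY and LCDM (EPS), named LCDM below, are culture media used without tamoxifen, and their composition is not given in the sources used here. Reprogrammed cells were passaged as single cells and primed cells mechanically as clumps, so protocol and way of passaging cannot be told apart.

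Levels are in CPM, each gene's counts set against the total of its library after scaling by the trimmed mean of M-values over all libraries. Total counts ran from 7111886 to 15183387 in the primed libraries and from 8375416 to 20760914 in the protocols. A gene with 3 counts, the floor used here, stands at 0.141 to 0.429 CPM depending on the library. No gene lengths were at hand, so levels are compared between samples and not between genes. Where the gene with the highest CPM of a list is named as leading it, that is a count of reads with no correction for length. The primed columns carry the letter J or K, 3 of each, which appear in no label and are given below as names only.

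The label calls all samples embryonic stem cells, but the pluripotency marker POU5F1 was far below its primed level in 5 of the 7 protocols. There SOX2 or, in TL2i, LIN28A had the highest CPM among 7 pluripotency genes. POU5F1, which encodes OCT4, averaged 1182 CPM in primed cells, 1365 CPM in E-NHSM and 502 CPM in TL-CDK8i. Its mean lay between 0.290 CPM (NHSM-v) and 6.44 CPM (TL2i) in the other 5 protocols. NANOG had no counts in NHSM-v or t2iLGöY. SOX2, which neural cells also express, averaged 74.6 to 328.8 CPM in those 5 protocols, and LIN28A averaged 271 CPM in TL2i. The 7 pluripotency genes had a mean sum of 3092 CPM in primed cells. In NHSM-v SOX2 made up 101 of a mean sum of 103 CPM, in t2iLGöY 109 of 114 CPM and in LCDM 329 of 342 CPM. In 4i/L/b it was 74.6 of 123 CPM, and in TL2i the mean sum was 375 CPM. What cell types the libraries held was not tested, and the protocols are named below by their media only.

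BMP ligands bind type I and type II serine/threonine kinase receptors, which phosphorylate the receptor SMADs; these pair with SMAD4 and act on target genes in the nucleus. ID genes are among the best known direct targets, and ID proteins hold basic helix-loop-helix factors away from DNA. In mouse naive stem cells BMP together with LIF is known to sustain self-renewal through ID proteins, whereas BMP added to primed human cells is known to drive differentiation, and BMP from the roof plate patterns the dorsal neural tube.

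Few of the 10 genes differed in E-NHSM. By edgeR's quasi-likelihood test with Benjamini-Hochberg adjustment over all tested genes, 1 gene was higher and 2 were lower there than in primed cells at an adjusted p under 0.05, where 11.1% of the 13304 tested genes were higher and 15.1% lower. In NHSM-v 6 were higher and 4 lower (all genes: 28.0% of 13268 higher, 30.6% lower). The 4i/L/b cells had 6 higher and 3 lower (all genes: 26.6% of 13558 higher, 29.0% lower). In TL2i 9 were higher and 1 was lower (all genes: 25.6% of 13808 higher, 25.2% lower). For t2iLGöY 9 were higher and 0 lower (all genes: 27.1% of 13662 higher, 27.2% lower). LCDM had 5 higher and 3 lower (all genes: 28.2% of 13625 higher, 28.9% lower). With TL-CDK8i 7 were higher and 0 lower (all genes: 22.3% of 13359 higher, 23.8% lower). The share called in E-NHSM was thus near that of all genes. In the other 6 protocols it was larger, but BMP2, BMP5, BMP6 and NOG were at or near 0 in primed cells and could be tested mostly through the protocols where they were high.

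The median log2 fold change over the tested members was 0.17 in E-NHSM, 1.54 in TL-CDK8i, 2.23 in LCDM, 2.34 in NHSM-v, 2.51 in 4i/L/b, 2.86 in TL2i and 3.15 in t2iLGöY. Over all tested genes the median stayed between −0.02 and 0.07. As with the share called, BMP2, BMP5, BMP6 and NOG could be tested mostly through the protocols where they were high. The members' medians thus lean toward rises, and nothing is read from their distance to that of all genes. All 7 comparisons use the same 6 primed libraries, so they are not separate lines of evidence. Replicates are not stated to be separate cultures, so the p-values measure the spread between these samples. The level of each gene in each library is shown by protocol.

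**Figure D1:**
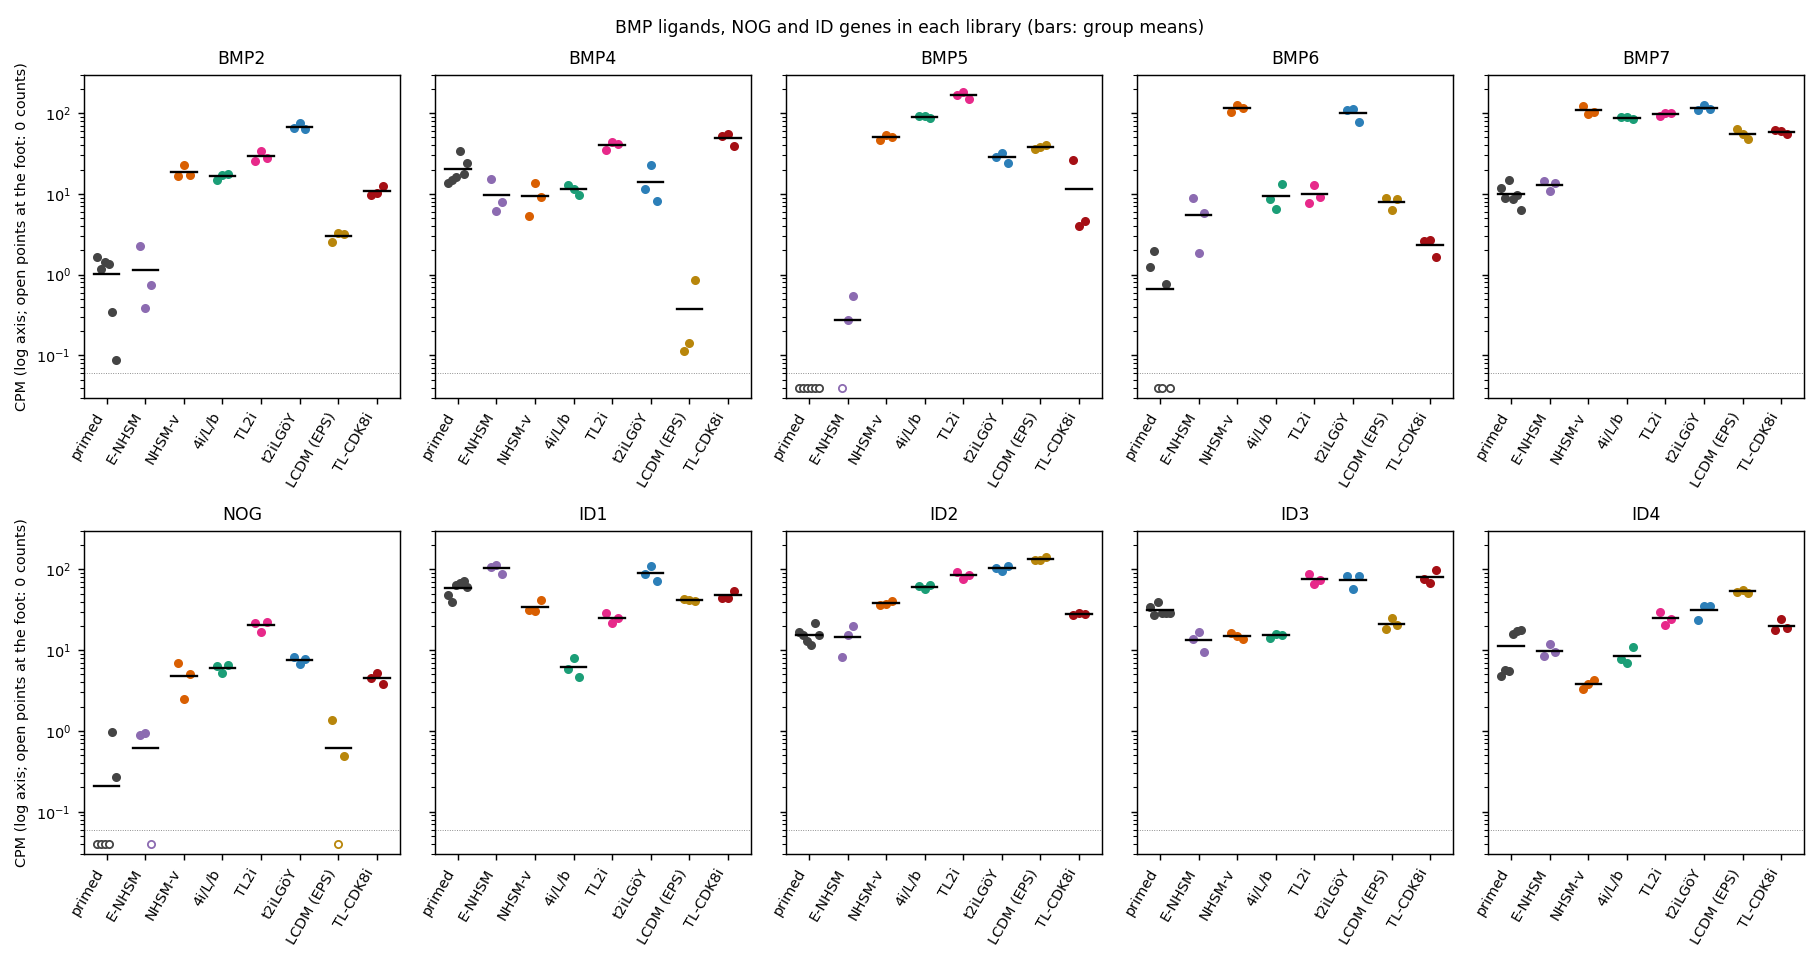
Level of each of the 10 genes in each of the 27 libraries, in CPM on a log axis, by group. Bars mark group means and open points at the foot of a panel mark libraries with 0 counts.

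BMP2 is a ligand with broad roles in early patterning. Primed libraries held 0.0886 to 1.68 CPM of it with a median of 1.28 CPM, 58 counts in all. E-NHSM had 2.26, 0.389 and 0.753 CPM and LCDM 2.50, 3.25 and 3.14 CPM. These were the low groups, and E-NHSM overlapped the primed range while LCDM stood just above it. TL-CDK8i had 9.75, 10.4 and 12.5 CPM, 4i/L/b 14.9, 17.3 and 17.4 CPM, and NHSM-v 16.8, 22.7 and 17.2 CPM. TL2i had 25.3, 34.3 and 27.6 CPM and t2iLGöY 64.9, 74.98 and 64.2 CPM. By mean level the order was t2iLGöY, TL2i, NHSM-v, 4i/L/b, TL-CDK8i, LCDM, E-NHSM and primed, and only NHSM-v with 4i/L/b and E-NHSM with primed overlapped among neighbours. In t2iLGöY BMP2 rose by a log2 fold change of 6.16 ± 0.41 (standard error), 67.0-fold by the means (adjusted p = 1e-08). It also rose in TL2i (4.88 ± 0.49, adjusted p = 2.2e-06), NHSM-v (4.22 ± 0.57, 1.4e-05), 4i/L/b (4.00 ± 0.58, 5.1e-05) and TL-CDK8i (3.38 ± 0.65, 0.00065). LCDM gave 1.55 ± 0.85 (adjusted p = 0.14) and E-NHSM 0.17 ± 1.18 (0.94), which did not pass. Against K columns alone LCDM passed (2.30, adjusted p = 0.046), as it did with all 8 groups in 1 fit (0.00087), in a range of 0.00087 to 0.28 over the alternatives.

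BMP4, a ligand often used to drive stem cells out of pluripotency in culture, had 1297 counts in primed cells. Its primed level ran from 13.5 to 34.2 CPM with a median of 16.9 CPM. TL2i had 35.3, 43.3 and 41.0 CPM and TL-CDK8i 52.2, 55.8 and 39.2 CPM, all above every primed library. LCDM had 0.114, 0.141 and 0.866 CPM, which are 2, 3 and 16 counts. E-NHSM had 15.3, 6.06 and 7.97 CPM, NHSM-v 5.30, 13.6 and 9.24 CPM, and 4i/L/b 12.9, 11.6 and 9.72 CPM. Only 4i/L/b of these lay wholly below the primed range, and t2iLGöY (11.6, 22.7 and 8.24 CPM) also overlapped it. The mean levels ran TL-CDK8i, TL2i, primed, t2iLGöY, 4i/L/b, E-NHSM, NHSM-v and LCDM, and among neighbours only TL2i with primed and NHSM-v with LCDM did not overlap.

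In LCDM BMP4 fell by a log2 fold change of −5.72 ± 0.61 (adjusted p = 2.4e-06), and by −7.16 without LCDM replicate 3. It rose in TL-CDK8i (1.23 ± 0.26, adjusted p = 0.0012) and TL2i (0.99 ± 0.26, 0.0055), the 2 protocols that use tamoxifen. E-NHSM (−1.04 ± 0.35, adjusted p = 0.033), NHSM-v (−1.12 ± 0.36, 0.015) and 4i/L/b (−0.86 ± 0.30, 0.027) were lower, and t2iLGöY did not pass (−0.47 ± 0.36, 0.29). Those 3 decreases did not hold against J columns alone, where E-NHSM gave −0.60 (adjusted p = 0.26), NHSM-v −0.64 (0.18) and 4i/L/b −0.39 (0.21). The E-NHSM call also ended without primed K1, primed K3, E-NHSM replicate 2 or E-NHSM replicate 3 (adjusted p 0.0022 to 0.26 over all alternatives). For NHSM-v it ended without NHSM-v replicate 1 or 3 (0.0014 to 0.18), and for 4i/L/b without primed K1 or K3 or any 1 of the 4i/L/b replicates, and at 0.051 with all 8 groups in 1 fit (0.0015 to 0.21). BMP4 overlaps a long noncoding RNA gene in the RefSeq table of a telomere-to-telomere rhesus assembly, and the strand setting of the counts is not given in the sources used here, so some reads may belong to the neighbour.

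BMP5 is a ligand best known from skeletal and dorsal tissues. It had 0 counts in all 6 primed libraries. In E-NHSM it had 0, 5 and 10 counts (0, 0.278 and 0.538 CPM) and was not tested there. TL2i held the most with 167.8, 181.8 and 149.4 CPM, then 4i/L/b with 92.4, 91.2 and 87.0 CPM and NHSM-v with 46.9, 52.8 and 49.99 CPM. Lower levels were found in LCDM (35.5, 37.7 and 39.7 CPM) and t2iLGöY (28.7, 31.9 and 24.1 CPM). TL-CDK8i was uneven, with 26.3 CPM in replicate 1 and 4.01 and 4.64 CPM in replicates 2 and 3. In this order only t2iLGöY with TL-CDK8i and E-NHSM with primed overlapped.

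With the primed mean set to the floor of 3 counts per library, BMP5 was at least 549-fold higher in TL2i (adjusted p = 1.1e-09), 298-fold in 4i/L/b (5e-09) and 165-fold in NHSM-v (7.5e-09). The bound was 124-fold in LCDM (adjusted p = 6.5e-08) and 93.2-fold in t2iLGöY (1.7e-07). In TL-CDK8i it was 38.4-fold (adjusted p = 0.00011) and 14.3-fold without replicate 1, the library that stood apart; DESeq2 gave no adjusted p here, and the others ran from 1.7e-09 to 0.0036. That library was also the highest of its group for TFAP2A (12.9 CPM, next 2.56 CPM) and for a summed list of roof plate genes (128 CPM, next 77.3 CPM). Their part in the BMP5 result was not tested. BMP5 and BMP7 are in the study's supplementary list of genes for a heatmap, and how that list was chosen is not given in the sources used here, so the direction of their change is not taken as independent evidence.

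BMP6, a ligand also known for its part in iron balance, was at 0 in 3 of the 6 primed libraries and reached 1.94 CPM in the highest, with a median of 0.380 CPM and 40 counts in all. NHSM-v had 103, 125 and 116 CPM and t2iLGöY 109.7, 113 and 78.1 CPM, above every library of the other groups. TL2i (7.79, 12.8 and 9.12 CPM), 4i/L/b (8.55, 6.56 and 13.1 CPM) and LCDM (8.82, 6.22 and 8.72 CPM) were alike in level and also above the primed range. E-NHSM had 8.95, 1.84 and 5.76 CPM and TL-CDK8i 2.64, 2.68 and 1.64 CPM, which both overlapped it. The mean order was NHSM-v, t2iLGöY, TL2i, 4i/L/b, LCDM, E-NHSM, TL-CDK8i and primed, and the step from t2iLGöY to TL2i was the only one without overlap.

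The log2 fold change of BMP6 was 7.43 ± 0.51 in NHSM-v (adjusted p = 1e-08), 175-fold by the means, and 7.29 ± 0.55 in t2iLGöY (3.7e-08). BMP6 rose in TL2i too (3.90 ± 0.98, adjusted p = 0.0045), and in 4i/L/b (3.78 ± 1.03, 0.0064) and LCDM (3.58 ± 1.05, 0.0095). E-NHSM (3.06 ± 1.13, adjusted p = 0.054) and TL-CDK8i (1.75 ± 1.24, 0.27) did not pass. E-NHSM passed in 7 alternatives, among them DESeq2 (0.025), K columns alone (0.0042) and without primed J2 (0.03), in a range of 1.3e-05 to 0.27. TL-CDK8i passed with all 8 groups in 1 fit (0.015) and against K columns alone (0.046), in a range of 0.015 to 0.47. Without primed J2, the highest primed library, the values became 8.11 in NHSM-v, 7.92 in t2iLGöY, 4.58 in TL2i, 4.50 in 4i/L/b and 4.27 in LCDM. BMP6 overlaps TXNDC5 in the RefSeq table, with the same doubt about reads of the neighbour.

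BMP7, a ligand with known roles in kidney and eye, ran from 6.38 to 14.9 CPM in primed cells with a median of 9.33 CPM. E-NHSM (14.5, 10.7 and 13.6 CPM) overlapped that range. LCDM had 62.9, 54.8 and 47.6 CPM, TL-CDK8i 61.7, 59.2 and 54.3 CPM, and 4i/L/b 88.5, 89.5 and 84.1 CPM. TL2i had 91.8, 99.9 and 100.2 CPM, NHSM-v 123, 97.2 and 103 CPM, and t2iLGöY 109, 127 and 111 CPM. All 6 of these protocols were wholly above the primed libraries. Among neighbours in level t2iLGöY overlapped NHSM-v, NHSM-v overlapped TL2i, and TL-CDK8i overlapped LCDM. BMP7 rose in t2iLGöY (log2 fold change 3.56 ± 0.21, adjusted p = 2.1e-09), NHSM-v (3.41 ± 0.21, 2.6e-09), TL2i (3.28 ± 0.20, 1.3e-08) and 4i/L/b (3.09 ± 0.20, 2.7e-08). It also rose in TL-CDK8i (2.49 ± 0.22, adjusted p = 5e-07) and LCDM (2.46 ± 0.23, 4.8e-07), and E-NHSM did not pass (0.36 ± 0.30, 0.42). No alternative ended a BMP7 call against primed cells.

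Noggin binds BMP ligands outside the cell and keeps them from their receptors. NOG was at 0 in 4 primed libraries, with 0.968 CPM in K2 and 0.266 CPM in K3, 17 counts in all. TL2i held the most with 21.7, 17.0 and 22.1 CPM. Next came t2iLGöY (8.19, 6.74 and 7.80 CPM), 4i/L/b (6.34, 5.23 and 6.64 CPM), NHSM-v (6.99, 2.47 and 5.02 CPM) and TL-CDK8i (4.47, 5.24 and 3.77 CPM), all above the primed range. LCDM (1.37, 0 and 0.487 CPM) and E-NHSM (0.895, 0.945 and 0 CPM) overlapped it. Among neighbours in this order TL2i, t2iLGöY and 4i/L/b were apart from one another, as were TL-CDK8i and LCDM.

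NOG rose in TL2i by a log2 fold change of 6.30 ± 0.78 (adjusted p = 1.6e-05), 98.5-fold by the means. It rose in t2iLGöY (5.03 ± 1.14, adjusted p = 0.0016), 4i/L/b (4.62 ± 1.11, 0.0029), NHSM-v (4.33 ± 1.23, 0.007) and TL-CDK8i (4.19 ± 1.18, 0.0091). E-NHSM did not pass (1.44 ± 1.70, adjusted p = 0.59) and LCDM was too low to be tested. These sizes rest on few primed reads: without primed K2 they became 8.14 in TL2i, 6.76 in t2iLGöY, 6.36 in 4i/L/b, 6.09 in NHSM-v and 5.91 in TL-CDK8i. The 5 protocols with higher NOG were those with higher BMP2, and neither BMP protein nor signalling was measured.

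All 4 ID genes were higher in t2iLGöY, and in the other protocols they differed in direction or in whether they passed. ID1, a classic immediate target of BMP, ran from 39.8 to 72.1 CPM in primed cells with a median of 61.9 CPM. E-NHSM had 107, 113 and 87.9 CPM, above every primed library, and t2iLGöY 87.6, 109 and 71.2 CPM, which overlapped them at its low end. The lowest levels were in 4i/L/b (5.76, 8.02 and 4.62 CPM) and TL2i (29.0, 21.4 and 25.3 CPM), both wholly below. NHSM-v (31.2, 30.9 and 41.4 CPM), LCDM (43.2, 42.3 and 40.4 CPM) and TL-CDK8i (44.3, 44.7 and 54.2 CPM) overlapped the primed range. By mean the order was E-NHSM, t2iLGöY, primed, TL-CDK8i, LCDM, NHSM-v, TL2i and 4i/L/b, with no overlap after TL-CDK8i, after NHSM-v and after TL2i.

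ID1 fell in 4i/L/b by a log2 fold change of −3.31 ± 0.25 (adjusted p = 1.1e-07), to 0.105 of the primed mean. In the same libraries BMP2, BMP5, BMP6, BMP7 and NOG were higher and BMP4 was lower. ID1 also fell in TL2i (−1.22 ± 0.19, adjusted p = 0.00013), NHSM-v (−0.79 ± 0.20, 0.0028) and LCDM (−0.48 ± 0.18, 0.031). It rose in E-NHSM (0.80 ± 0.16, adjusted p = 0.00094) and t2iLGöY (0.63 ± 0.18, 0.0087), and TL-CDK8i did not pass (−0.35 ± 0.18, 0.12). The LCDM call ended against J columns alone (−0.25, adjusted p = 0.27), without primed K1, K2 or K3 and without any 1 of the LCDM replicates (0.0004 to 0.27). The t2iLGöY call ended without t2iLGöY replicate 2 (0.46, adjusted p = 0.08; 0.0017 to 0.08). TL-CDK8i passed against K columns alone (−0.53, adjusted p = 0.0045) and without primed J2 (0.03), in a range of 0.0045 to 0.64.

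ID2 ran from 11.5 to 21.5 CPM in primed cells with a median of 15.6 CPM. Its protein, like those of the other ID genes, lacks a DNA binding domain. LCDM had 130, 129.9 and 143 CPM, t2iLGöY 104.9, 94.5 and 109.8 CPM, and TL2i 93.9, 75.9 and 84.1 CPM. The 4i/L/b libraries had 62.6, 56.4 and 64.8 CPM, NHSM-v 36.4, 37.2 and 40.8 CPM, and TL-CDK8i 27.1, 28.6 and 28.3 CPM. Those 6 protocols stood above the primed range in that order with no overlap between neighbours, and E-NHSM (8.34, 15.5 and 19.8 CPM) overlapped it. ID2 rose in LCDM by a log2 fold change of 3.10 ± 0.16 (adjusted p = 1.3e-09), 8.60-fold by the means. The rise was 2.75 ± 0.18 in t2iLGöY (adjusted p = 6.5e-09), 2.43 ± 0.17 in TL2i (6.5e-08) and 1.93 ± 0.18 in 4i/L/b (7.8e-07). It was 1.26 ± 0.21 in NHSM-v (adjusted p = 8.3e-05) and 0.79 ± 0.21 in TL-CDK8i (0.006), and E-NHSM did not pass (−0.11 ± 0.29, 0.82). LCDM thus had the highest mean ID2 and the lowest mean BMP4 of the 8 groups.

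ID3 split the protocols into higher and lower groups. Primed cells had 27.3 to 39.4 CPM of it with a median of 29.0 CPM. TL-CDK8i had 76.2, 67.3 and 98.7 CPM, TL2i 87.5, 66.3 and 74.4 CPM, and t2iLGöY 83.4, 57.8 and 83.1 CPM. These 3 overlapped one another and were all above the primed range, while the other 4 were all below it. LCDM had 18.1, 25.4 and 20.6 CPM, 4i/L/b 14.2, 15.8 and 15.6 CPM, NHSM-v 16.2, 14.8 and 13.8 CPM, and E-NHSM 13.7, 16.6 and 9.53 CPM. The last 3 overlapped in that order, and LCDM was apart from them. ID3 rose in TL-CDK8i (log2 fold change 1.32 ± 0.16, adjusted p = 9.8e-06), t2iLGöY (1.29 ± 0.17, 1.2e-05) and TL2i (1.28 ± 0.15, 6.9e-06). It fell in E-NHSM (−1.24 ± 0.22, adjusted p = 0.00033), NHSM-v (−1.09 ± 0.20, 0.00021), 4i/L/b (−1.08 ± 0.18, 0.00016) and LCDM (−0.55 ± 0.19, 0.022). The LCDM call ended without LCDM replicate 1 or 3 and against K columns alone (adjusted p 0.0061 to 0.12). ID3 overlaps a pseudogene in the RefSeq table, and ID2 overlaps a further gene there, so their reads carry the same doubt.

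ID4 differed between the primed letters themselves, which limits every comparison with it. The J libraries had 4.80, 5.72 and 5.57 CPM and the K libraries 16.0, 17.4 and 18.0 CPM, with no overlap. BMP4 was the other member that separated by letter (J 13.5 to 16.1 CPM, K 17.6 to 34.2 CPM). LCDM (52.7, 55.9 and 51.2 CPM), t2iLGöY (23.3, 35.4 and 35.6 CPM) and TL2i (30.0, 20.4 and 24.2 CPM) were above both letters. NHSM-v (3.27, 3.81 and 4.31 CPM) was below both. TL-CDK8i had 17.9, 24.0 and 18.6 CPM, E-NHSM 8.48, 11.8 and 9.36 CPM, and 4i/L/b 7.88, 6.93 and 10.9 CPM, of which the last 2 fell between the letters. In the order of means LCDM and NHSM-v were apart from their neighbours at the 2 ends, and t2iLGöY, TL2i, TL-CDK8i, primed, E-NHSM and 4i/L/b each overlapped the next.

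In LCDM ID4 rose by a log2 fold change of 2.23 ± 0.37 (adjusted p = 0.00016), which was 3.33 against J and 1.64 against K columns. The rise was 1.499 ± 0.40 in t2iLGöY (adjusted p = 0.0056; 2.57 against J, 0.89 against K) and 1.13 ± 0.40 in TL2i (0.031; 2.22 and 0.53). The TL2i call ended without primed J1, primed J2 or any 1 of the TL2i replicates (adjusted p 9.3e-05 to 0.13). ID4 fell in NHSM-v (−1.59 ± 0.52, adjusted p = 0.016), a call that ended against J columns alone (−0.48, 0.5) and without NHSM-v replicate 1 (2e-05 to 0.5). TL-CDK8i (0.78 ± 0.41, adjusted p = 0.14), E-NHSM (−0.20 ± 0.43, 0.79) and 4i/L/b (−0.44 ± 0.47, 0.45) did not pass. TL-CDK8i passed with all 8 groups in 1 fit (0.82, adjusted p = 0.025) and against J alone (1.87, 0.00038), where E-NHSM gave 0.88 and 4i/L/b 0.66. Against K alone E-NHSM (−0.79, adjusted p = 0.021) and 4i/L/b (−1.02, 0.0025) passed with the opposite sign, and TL-CDK8i gave 0.19 (0.44). Summed marker lists also separated J from K: mesoderm (27.0 to 27.8 against 13.7 to 15.2 CPM), endoderm (4.58 to 18.6 against 0.599 to 1.11 CPM), fibroblast (2176 to 2407 against 1138 to 2019 CPM) and pluripotency (2930 to 3052 against 3207 to 3210 CPM). Their part in the results was not tested, and what sets the letters apart is not given in the sources used here. The labels also give conflicting set numbers for some primed libraries.

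The fold changes of all members in all comparisons are set side by side in the heatmap. BMP7 and ID2 share the rise in every protocol but E-NHSM, and ID1 and ID3 go up in some protocols and down in others.

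**Figure D2:**
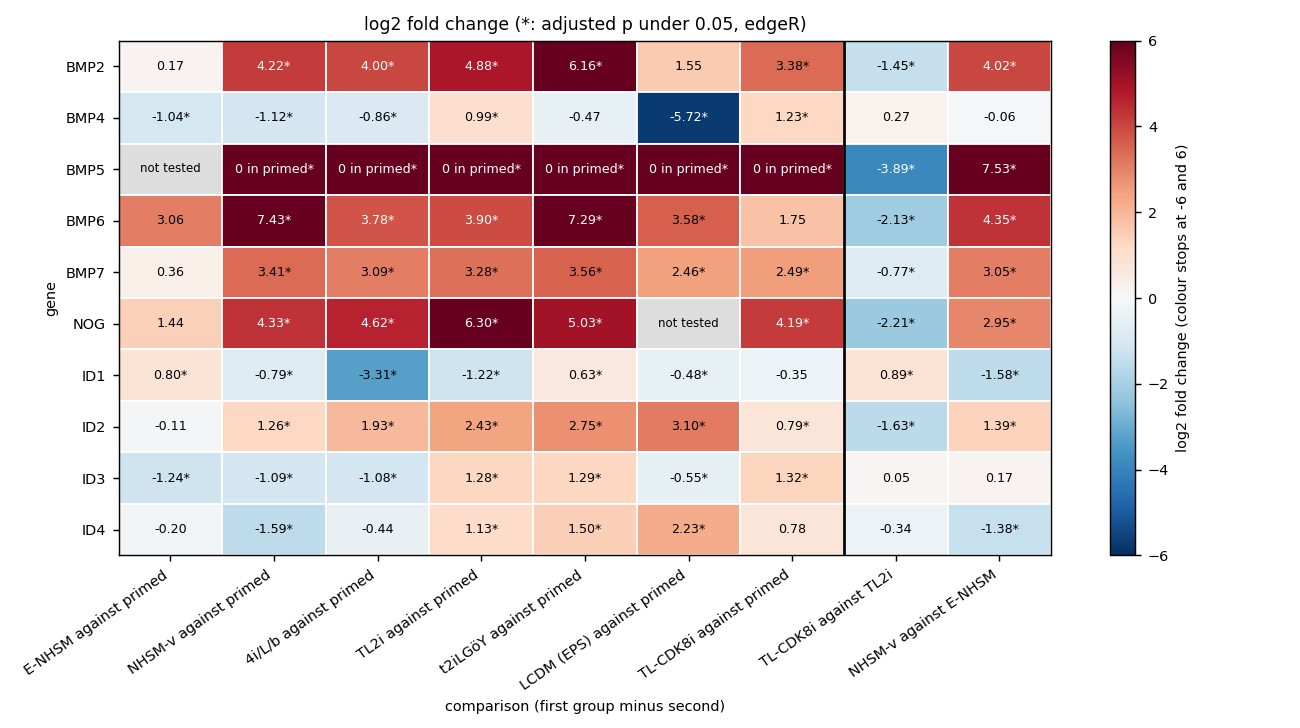
Log2 fold change of the 10 genes in the 7 comparisons with primed cells and the 2 direct comparisons. An asterisk marks an adjusted p under 0.05, grey marks genes not tested, and colours stop at −6 and 6.

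TL-CDK8i and TL2i share tamoxifen and differ in their inhibitors, and were compared directly. In that test 1 member was higher in TL-CDK8i and 6 were lower, where 31.5% of 13729 genes were higher and 33.3% lower, and the members' median log2 fold change was −1.11 beside −0.04 for all genes. BMP5 was 14.3-fold higher in TL2i by the means (log2 fold change of TL-CDK8i over TL2i −3.89, adjusted p = 3.8e-06), and the value was −5.30 without TL-CDK8i replicate 1. NOG (−2.21, adjusted p = 5.3e-07; 4.50-fold), BMP6 (−2.13, 2.6e-05; 4.27-fold), ID2 (−1.63, 2.7e-08; 3.02-fold) and BMP2 (−1.45, 4.2e-06; 2.68-fold) were also lower in TL-CDK8i. BMP7 differed less (−0.77, adjusted p = 1.1e-05; 1.67-fold). ID1 alone was higher in TL-CDK8i (0.89, adjusted p = 5.7e-05; 1.89-fold). BMP4 (0.27, adjusted p = 0.11), ID3 (0.05, 0.74) and ID4 (−0.34, 0.091) did not pass, and only these 3 overlapped between the groups. BMP4 passed without TL-CDK8i replicate 3 (0.42, adjusted p = 0.012; 0.012 to 0.56), and ID4 without TL2i replicate 2 (0.042) or TL-CDK8i replicate 2 (0.041; 0.041 to 0.51). A p that misses the threshold does not show that they are equal.

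NHSM-v and E-NHSM were compared in the same way. Higher in NHSM-v were 6 members and lower 2, where 33.4% of 13392 genes were higher and 34.8% lower, and the members' median was 2.17 beside −0.03 for all genes. BMP5 and NOG were at or near 0 in E-NHSM and could be tested mostly through NHSM-v, so this count and median lean toward rises. The largest difference was in BMP5 (183-fold by the means; log2 fold change 7.53, adjusted p = 9.4e-10), which was 6.90 without E-NHSM replicate 1 and 8.51 without E-NHSM replicate 3. BMP6 (4.35, adjusted p = 2.8e-08; 20.8-fold), BMP2 (4.02, 6.1e-06; 16.7-fold) and BMP7 (3.05, 2.2e-10; 8.34-fold) followed, and BMP2 was 5.03 without E-NHSM replicate 1. NOG (2.95, adjusted p = 0.016; 7.87-fold) lost its call without NHSM-v replicate 1 or 3 (0.0013 to 0.091). ID2 was higher (1.39, adjusted p = 0.00024) and ID1 (−1.58, 2.1e-07) and ID4 (−1.38, 0.0038) were lower in NHSM-v. BMP4 (−0.06, adjusted p = 0.90) and ID3 (0.17, 0.58) did not pass and overlapped. These are the only 2 pairs of protocols tested against each other, so where levels of other protocols are given as high, low or apart, that describes the measured values and is no test.

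The rest of the pathway was read from 5 lists by role, with 53 of 56 genes in the tables (BMP8A, TWSG1 and NBL1 were not). Over all 53, the genes higher and lower than in primed cells were 2 and 7 of 32 tested in E-NHSM (all genes: 11.1% and 15.1%), 22 and 6 of 38 in NHSM-v (28.0% and 30.6%), and 21 and 5 of 41 in 4i/L/b (26.6% and 29.0%). They were 22 and 5 of 45 in TL2i (25.6% and 25.2%), 21 and 8 of 46 in t2iLGöY (27.1% and 27.2%), 17 and 6 of 38 in LCDM (28.2% and 28.9%), and 18 and 2 of 42 in TL-CDK8i (22.3% and 23.8%). Genes that only a protocol expresses enter the test through that protocol, so the counts lean toward rises. With both directions added, the share called in E-NHSM, LCDM and TL-CDK8i was near that of all genes, while in LCDM and TL-CDK8i rises made up more and falls less of it than over all genes. The larger number of falls in E-NHSM is seen over all genes too.

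**Figure D3:**
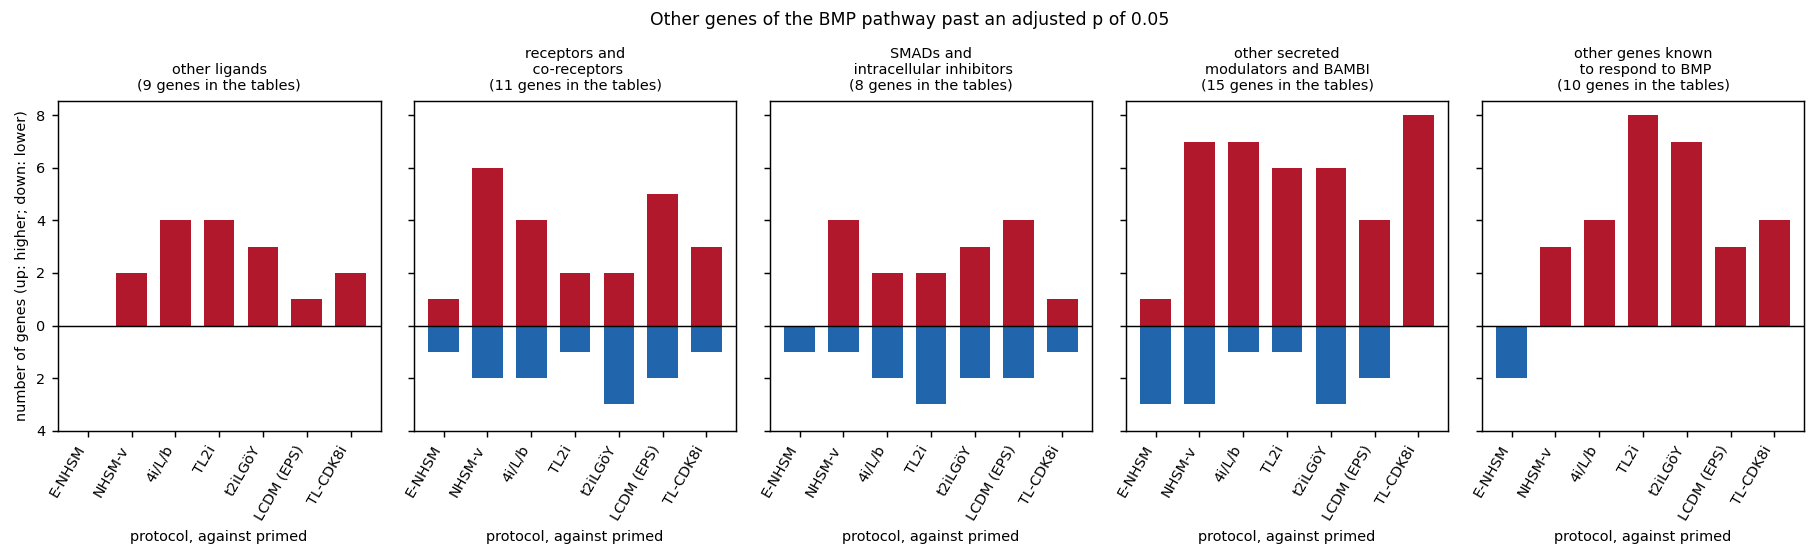
Number of genes higher (up) and lower (down) than in primed cells at an adjusted p under 0.05, for 5 lists of BMP pathway genes by role in each protocol.

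Of the 9 other ligands in the tables, 1 to 5 were tested in a protocol, 0 to 4 were higher and 0 were lower (all genes: 11.1% to 28.2% higher, 15.1% to 30.6% lower), with a median log2 fold change from −1.34 in E-NHSM to 6.01 in NHSM-v. With so few tested, most of them near 0 in primed cells, nothing is read from that share. GDF10, also called BMP3B, led the list in mean CPM and rose in 6 protocols by 2.62 to 6.40. Its mean was 105 CPM in 4i/L/b and 80.7 CPM in NHSM-v, beside 0.112 to 5.57 CPM in the primed libraries. Primed J3 held the most, and without it the NHSM-v value went from 6.01 to 7.12, with shifts of like size in the other 5. The TL-CDK8i call (adjusted p = 0.025) ended without TL-CDK8i replicate 1 and against J columns alone (1.6e-05 to 0.17). GDF7, a roof plate ligand, rose in t2iLGöY (5.48, adjusted p = 8.7e-06), TL2i (4.49, 0.00033) and 4i/L/b (2.71, 0.041), and without primed K2 the first 2 values became 6.09 and 5.10. The 4i/L/b call ended without primed K1 or any 1 of the 4i/L/b replicates (0.00055 to 0.14). GDF7 did not pass in TL-CDK8i (2.56, adjusted p = 0.065) or NHSM-v (2.53, 0.071), but did in 5 and 4 of their alternatives (lowest 0.0013 and 0.0011). GDF6 rose in 4 protocols, and its fold changes rest on primed K3, without which the NHSM-v value went from 7.02 to 10.7. Its 4i/L/b call (3.42, adjusted p = 0.043) ended in 10 alternatives (0.0023 to 0.11).

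Of 11 receptors and co-receptors, 9 to 11 were tested in a protocol, 1 to 6 were higher and 1 to 3 lower (all genes: 11.1% to 28.2% higher, 15.1% to 30.6% lower), with medians from −0.20 to 0.68. The share called was near or below that of all genes in E-NHSM, TL2i, t2iLGöY, 4i/L/b and TL-CDK8i, and larger for rises in NHSM-v (6 of 9) and LCDM (5 of 9). RGMB, a membrane-anchored BMP co-receptor, rose in all 7 protocols (1.33 to 3.91), E-NHSM among them (1.497, adjusted p = 0.0016), and no alternative ended a call. It averaged 254 CPM in LCDM and 43.7 to 71.8 CPM in the other 6, beside 3.71 to 23.2 CPM in primed libraries. BMPR2, the type II receptor that is specific to BMP ligands, rose in 6 protocols from 0.45 in TL2i (adjusted p = 0.014) to 2.32 in NHSM-v (2.7e-10). The TL2i call ended without TL2i replicate 2 (0.36, adjusted p = 0.095; 0.00077 to 0.095). ACVR2B, a type II receptor shared with activin, fell in NHSM-v (−1.29, adjusted p = 6e-08), 4i/L/b (−0.58, 0.00023) and t2iLGöY (−0.42, 0.0026). In LCDM ACVR2B rose (0.33, adjusted p = 0.011), and the call, though not the size, was lost without LCDM replicate 3 (0.28, adjusted p = 0.06; 0.0011 to 0.06). The type I receptor BMPR1A passed in NHSM-v (0.41, adjusted p = 0.0077). It did not pass in TL-CDK8i (0.27, adjusted p = 0.066), t2iLGöY (0.25, 0.09), LCDM (0.17, 0.2) or 4i/L/b (0.12, 0.4), but did in 6, 3, 2 and 1 of their alternatives (lowest 0.0034, 0.021, 0.022 and 0.039).

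All 8 SMADs and intracellular inhibitors were tested, with 0 to 4 higher, 1 to 3 lower and medians from −0.08 to 0.68. Set against 11.1% to 28.2% of all genes higher and 15.1% to 30.6% lower, these counts were mostly near or below the share of all genes, with the most rises in NHSM-v and LCDM (4 of 8 each). SMAD7, an inhibitory SMAD that blocks TGF-β and BMP receptors, fell in 6 protocols. Its level was 98.5 to 174 CPM in primed libraries, 17.0 to 22.7 CPM in t2iLGöY and 17.5 to 23.4 CPM in TL2i, with no overlap. The fall ran from −0.95 in NHSM-v (adjusted p = 0.00026) to −2.72 in t2iLGöY (4e-08), and in E-NHSM the value was 0.02 (0.95). Against K columns alone SMAD7 passed as higher in E-NHSM (0.32, adjusted p = 0.012), and against J columns alone it gave −0.23 (0.16). SMAD5, a receptor SMAD of the BMP branch, rose in 6 protocols by 0.32 to 0.82. The smallest of these, in TL-CDK8i (adjusted p = 0.043), ended against K columns alone, without primed J1, J2 or K2 and without any 1 of the TL-CDK8i replicates (0.0011 to 0.15). SMAD4, the common partner, rose in 5 protocols by 0.41 to 0.80, and its 4i/L/b call (adjusted p = 0.024) ended against K columns alone and without 4i/L/b replicate 2 or 3 (0.00084 to 0.11). SMAD4 did not pass in TL-CDK8i (0.31, adjusted p = 0.094), but did as higher in 4 alternatives (lowest 0.0048). Its E-NHSM value (−0.25, adjusted p = 0.27) passed as lower against K columns alone (−0.43, 0.016). SMAD9, a further BMP SMAD, rose in LCDM (4.50, adjusted p = 0.00018) and t2iLGöY (3.98, 0.0011). In NHSM-v SMAD9 passed (2.76, adjusted p = 0.028) but not without any 1 of the NHSM-v replicates (0.00087 to 0.095), and the value was 3.39 without primed J1. SMURF2, a ubiquitin ligase for SMADs, passed in LCDM (0.66, adjusted p = 0.0004). It did not pass in NHSM-v (0.29, adjusted p = 0.071), TL-CDK8i (0.28, 0.093) or 4i/L/b (0.19, 0.23), but did in 7, 5 and 3 of their alternatives (lowest 0.0019, 0.0036 and 0.0045), as higher each time. Higher SMURF2 also passed in t2iLGöY against J columns alone (0.399, adjusted p = 0.016), and lower SMURF2 passed against K columns alone in TL2i (−0.38, 0.0081) and E-NHSM (−0.35, 0.02).

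Of 15 other secreted modulators and BAMBI, 11 to 14 were tested, 1 to 8 were higher and 0 to 3 lower (all genes: 11.1% to 28.2% higher, 15.1% to 30.6% lower), with medians from −0.51 to 2.33. The share of rises was near that of all genes in E-NHSM and LCDM and larger in the other 5. GREM1, a secreted BMP antagonist like noggin, averaged 430 CPM in TL-CDK8i, 126 CPM in 4i/L/b and 115 CPM in TL2i, beside 5.14 to 23.1 CPM in primed libraries. It rose in 6 protocols, from 1.32 in LCDM (adjusted p = 0.014) to 5.46 in TL-CDK8i (3.2e-08), and fell in E-NHSM (−2.16, 0.0058). The E-NHSM call ended against J columns alone (1.3e-05 to 0.13), and the LCDM call against K columns alone and without LCDM replicate 2 (4.2e-05 to 0.06). FST, which encodes the activin and BMP binding protein follistatin, fell in 6 protocols, from −0.49 in NHSM-v (adjusted p = 0.00013) to −3.90 in t2iLGöY (6.8e-11). In TL-CDK8i it gave 0.17 (adjusted p = 0.13) and passed as higher in 3 alternatives (lowest 0.028). FSTL1, a follistatin-like secreted protein, rose in TL-CDK8i (0.99, adjusted p = 4.6e-08), NHSM-v (0.79, 2.3e-08) and 4i/L/b (0.48, 3.7e-05) and fell in E-NHSM (−0.81, 2.8e-08) and LCDM (−1.58, 9.7e-11). In TL2i it gave 0.18 (adjusted p = 0.063) and passed in 6 alternatives (lowest 0.017). CHRD, which encodes the antagonist chordin, rose in 4 protocols by 2.16 to 3.44. Its LCDM (adjusted p = 0.046) and TL-CDK8i (0.034) calls ended without any 1 of their own replicates and in other settings (0.00077 to 0.13 and 0.00039 to 0.17).

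The 10 other genes known to respond to BMP were mostly near 0 in primed cells, so most could be tested only where a protocol expressed them, and their counts must lean toward rises. Of 3 to 10 tested in a protocol, 0 to 8 were higher and 0 to 2 lower: 8 of 10 were higher in TL2i (all genes: 25.6%), 7 of 8 in t2iLGöY (27.1%) and 0 of 3 in E-NHSM (11.1%). Between these lay 4i/L/b with 4 of 5 higher (26.6%), NHSM-v with 3 of 5 (28.0%), LCDM with 3 of 5 (28.2%) and TL-CDK8i with 4 of 8 (22.3%). In E-NHSM 2 of 3 were lower (15.1%). The median ran from −6.97 in E-NHSM to 5.61, or from −3.09 to 4.73 when genes at 0 were set to the floor. The list summed to 2.43 to 12.2 CPM in primed libraries and to 0 to 1.95 CPM in E-NHSM, and every other protocol was above both. The sums were 216 to 230 CPM in TL2i, 190 to 243 CPM in t2iLGöY, 185 to 206 CPM in LCDM, 85.6 to 95.9 CPM in NHSM-v, 41.5 to 48.4 CPM in 4i/L/b and 30.1 to 51.6 CPM in TL-CDK8i. The summed level was thus higher in 4i/L/b and TL2i, where ID1 was lower, and at or near 0 in E-NHSM, where ID1 was higher. It was also higher in NHSM-v and LCDM, where ID1 was lower, while in t2iLGöY both were higher. In 4i/L/b that sum holds 4 genes called higher, 1 that did not pass and 5 not tested. In LCDM it was mostly 1 gene, TFAP2A, with a mean of 180.5 CPM in a mean sum of 194.9 CPM. There 3 genes were called higher, 2 did not pass and 5 were not tested.

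MSX1 and MSX2 encode homeobox factors that act downstream of BMP in dorsal and limb tissue. MSX1 rose in 6 protocols by 3.67 to 6.87, with 46.0 to 69.9 CPM in t2iLGöY and 47.7 to 55.2 CPM in TL2i beside 0 to 1.86 CPM in primed libraries. Without primed K3, which held the most, each log2 fold change was larger, for example 8.21 in place of 6.87 in t2iLGöY and 4.99 in place of 3.67 in LCDM. The MSX1 calls in 4i/L/b and TL-CDK8i ended under DESeq2 (adjusted p = 0.055 and 0.1, the highest of their ranges), and that of TL-CDK8i also without TL-CDK8i replicate 1. The LCDM call (0.02) ended without LCDM replicate 2 or 3 (1.1e-06 to 0.069). MSX2 had counts in primed J1 alone among primed libraries (0.670 CPM) and rose in 6 protocols, with the highest level in NHSM-v (41.0 to 54.6 CPM). Its fold changes of 5.13 to 8.81 rest on that library and were larger without it. TFAP2A, a factor of surface ectoderm and neural crest, rose in LCDM (5.78, adjusted p = 2e-09), t2iLGöY (5.36, 5.7e-09), TL2i (4.62, 1.1e-07) and NHSM-v (2.59, 0.00013). In 4i/L/b it gave 1.19 (adjusted p = 0.068) and passed in 5 alternatives (lowest 0.0044). In E-NHSM it had 1 count in all, in replicate 2, beside 1.33 to 6.37 CPM in primed libraries, and it fell (adjusted p = 0.001). The fitted log2 fold changes were −6.97, and −8.43 without that replicate. They rest on 1 count or none in E-NHSM, so they do not measure the size of the fall.

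The list of genes known to respond to BMP was also read in the direct comparisons. In TL-CDK8i against TL2i 0 of 10 were higher and 8 lower (all genes: 31.5% higher, 33.3% lower), with a median of −1.88. Among them were TFAP2A (−3.89, adjusted p = 1.5e-06), MSX1 (−2.91, 1.2e-07) and MSX2 (−1.77, 7.3e-06). Without TL-CDK8i replicate 1 the TFAP2A value was −5.24. Against primed cells all 10 could be tested in TL2i and 8 in TL-CDK8i, so some may enter this test mostly through TL2i. The count and median thus lean toward falls, and nothing is read from them. Over all 53 pathway genes 14 were higher and 18 lower of 45 tested, a share near that of all genes (31.5% higher, 33.3% lower). FST (1.72, adjusted p = 3.4e-09), GREM1 (1.87, 8.6e-08) and SMAD7 (1.63, 9.8e-08) were higher in TL-CDK8i. In NHSM-v against E-NHSM 4 of 5 responders were higher and 0 lower, and over all pathway genes 31 were higher and 4 lower of 39 (all genes: 33.4% higher, 34.8% lower). The responders were at or near 0 in E-NHSM and could be tested mostly through NHSM-v. Their count, which is part of the pathway count, thus leans toward rises, and nothing is read from it.

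Markers of other cell types moved with the protocols, and their part in the results above was not tested. Fewer cells of a type and less RNA per cell cannot be told apart in these bulk samples. The 9 genes of the dorsal neural tube and roof plate, tissues that make BMP ligands, summed to 3.24 to 10.5 CPM in primed libraries, where 8 had counts, and to 1.02 to 2.50 CPM in E-NHSM. They summed to 2607 to 3092 CPM in t2iLGöY, led by WNT1 (668 CPM), and to 802 to 881 CPM in NHSM-v and 782 to 890 CPM in LCDM, where ZIC1 led. TL2i had 569 to 644 CPM, 4i/L/b 504 to 542 CPM and TL-CDK8i 65.3 to 128 CPM. BMP5, BMP7 and ID2 were higher in these same protocols. So were BMP2 and NOG save in LCDM, where BMP2 did not pass and NOG was not tested, and BMP6 save in TL-CDK8i. BMP4, ID1, ID3 and ID4 went up in some of them and down in others, with BMP4 lower in NHSM-v, 4i/L/b and LCDM. OLIG3 was at 0 in primed cells and E-NHSM, LMX1A and RSPO1 in E-NHSM as well, and no gene of the list was at 0 in the other 6.

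**Figure D4:**
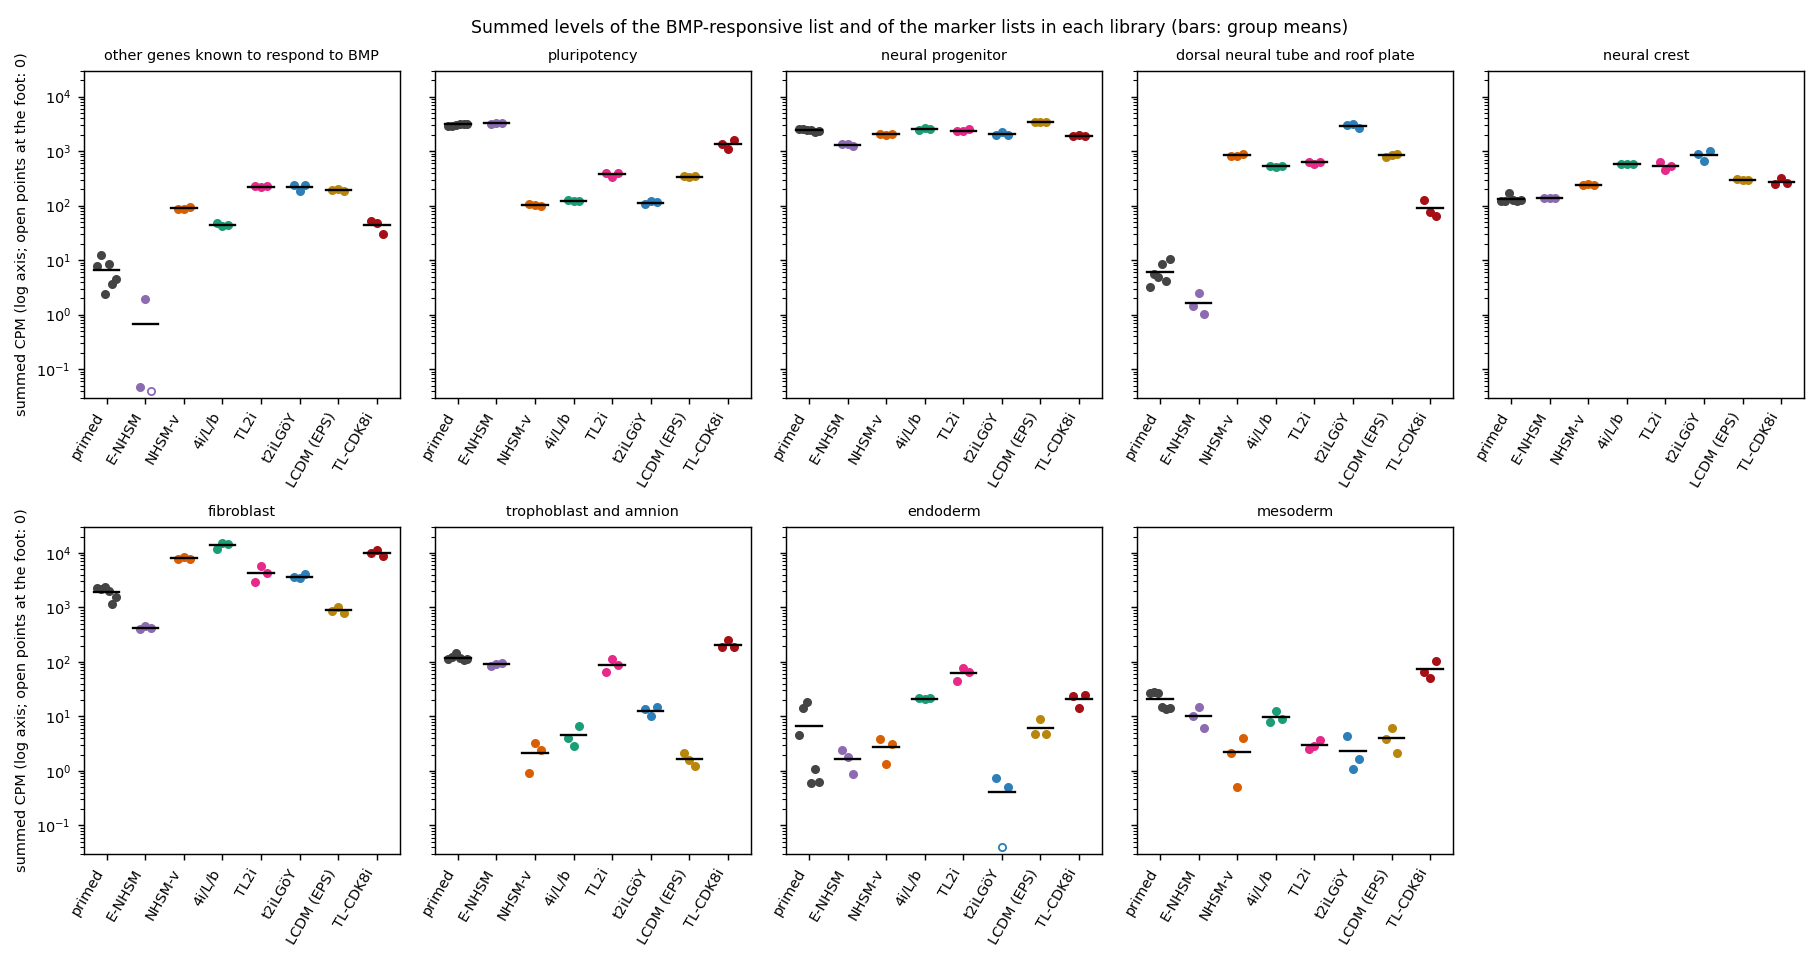
Summed level in each library, in CPM on a log axis, of the 10 other genes known to respond to BMP and of 8 lists of cell type markers, by group.

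The 7 pluripotency genes summed to 2930 to 3210 CPM in primed libraries, 3145 to 3285 CPM in E-NHSM and 1114 to 1575 CPM in TL-CDK8i, each led by POU5F1. The sums were 100 to 109 CPM in NHSM-v (NANOG and PRDM14 at 0), 105 to 121.5 CPM in t2iLGöY (NANOG and TDGF1 at 0) and 121 to 125 CPM in 4i/L/b. They were 331 to 403 CPM in TL2i, led by LIN28A, and 337.5 to 346 CPM in LCDM, led by SOX2.

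Fibroblast genes, 8 in all, were led by COL1A1 in every group but E-NHSM, where COL1A2 led. They summed to 1138 to 2407 CPM in primed libraries and 407 to 451 CPM in E-NHSM, and DCN and LUM were at 0 in both and in t2iLGöY. The sums were 11630 to 15110 CPM in 4i/L/b, 8710 to 11280 CPM in TL-CDK8i, 7863 to 8409 CPM in NHSM-v, 2958 to 5751 CPM in TL2i, 3420 to 4030 CPM in t2iLGöY and 777 to 1006 CPM in LCDM. GREM1, which fibroblasts also express, was highest in TL-CDK8i and 4i/L/b, with log2 fold changes against primed cells of 5.46 and 3.71. It rose by 3.62 in TL2i and by 2.69 in NHSM-v, though the fibroblast sum was higher in NHSM-v than in TL2i. A link between GREM1 and these sums was not tested. The 6 neural crest genes summed to 121 to 174 CPM in primed cells and 138 to 139.5 CPM in E-NHSM. They reached 658 to 1000 CPM in t2iLGöY, 574 to 578 CPM in 4i/L/b, 447 to 635.5 CPM in TL2i, 247 to 324 CPM in TL-CDK8i, 290 to 302 CPM in LCDM and 236 to 245 CPM in NHSM-v. ETS1 led this list in 6 groups, TFAP2B in t2iLGöY and LCDM, and no gene was at 0.

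The 6 neural progenitor genes were led in every group by NES, which primed cells express too, and summed to 2234 to 2572 CPM in primed libraries, with HES5 at 0, and to 1220 to 1357 CPM in E-NHSM, also with HES5 at 0. The other sums were 3388 to 3468 CPM in LCDM, 2406 to 2650 CPM in 4i/L/b, 2312 to 2497 CPM in TL2i, 1950 to 2199 CPM in t2iLGöY, 2018 to 2026 CPM in NHSM-v and 1869 to 1987 CPM in TL-CDK8i. NES alone averaged 2430 CPM of a mean sum of 2439 CPM in primed cells and 1292 of 1300 CPM in E-NHSM. It averaged 3086 of 3419 CPM in LCDM, 1848 of 2046 CPM in t2iLGöY and 1948 of 2023 CPM in NHSM-v. In 4i/L/b it was 2529 of 2550 CPM, in TL2i 2359 of 2388 CPM and in TL-CDK8i 1894 of 1927 CPM. These sums thus follow NES and hide the rest of the list, which averaged more in LCDM, t2iLGöY and NHSM-v than in primed cells. Among 7 trophoblast and amnion genes, of which BMP can raise several in primed cells, CDX2, GABRP, CGA and ELF5 were at 0 in primed libraries. The list summed to 107 to 148 CPM there and to 85.1 to 97.6 CPM in E-NHSM, both led by VTCN1 (means 116 and 87.2 CPM), and in E-NHSM CDX2, ISL1, CGA and ELF5 were at 0. Its sum was 186 to 251 CPM in TL-CDK8i, led by KRT7 (mean 162 CPM) with CGA and ELF5 at 0, and 66.7 to 113 CPM in TL2i, led by GABRP (mean 71.5 CPM) with none at 0. Led by ISL1, the sums were 10.2 to 14.7 CPM in t2iLGöY (CDX2, KRT7, VTCN1 and CGA at 0), 2.92 to 6.55 CPM in 4i/L/b (ELF5 at 0) and 1.25 to 2.16 CPM in LCDM (CDX2, KRT7 and GABRP at 0). In NHSM-v the sum was 0.902 to 3.19 CPM, led by KRT7, with CDX2, VTCN1, CGA and ELF5 at 0.

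The 4 endoderm genes summed to 0.599 to 18.6 CPM in primed libraries, led by FOXA2, and to 45.4 to 76.4 CPM in TL2i, led by SOX17. The sums were 20.9 to 21.6 CPM in 4i/L/b, 14.4 to 24.6 CPM in TL-CDK8i and 4.82 to 9.15 CPM in LCDM, led by GATA6. They were 0.861 to 2.40 CPM in E-NHSM (GATA6 at 0) and 1.34 to 3.83 CPM in NHSM-v (SOX17 and FOXA2 at 0), led by GATA4, and 0 to 0.750 CPM in t2iLGöY (SOX17 at 0). The 4 mesoderm genes summed to 13.7 to 27.8 CPM in primed cells and 6.08 to 14.9 CPM in E-NHSM, led by MIXL1 and with MESP1 at 0 in both. They reached 51.2 to 106 CPM in TL-CDK8i and 7.97 to 12.4 CPM in 4i/L/b, led by EOMES. The rest were 2.11 to 6.13 CPM in LCDM, 2.50 to 3.68 CPM in TL2i, 1.07 to 4.37 CPM in t2iLGöY and 0.514 to 3.96 CPM in NHSM-v, where TBXT was at 0.

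For each member the 3 genes with the most similar pattern were found by Pearson correlation of mean log2 CPM over the 8 groups, among the 9913 or 9914 other genes whose mean log2 CPM reached 3. With n = 8 groups and so many genes, high values arise readily, and the correlations are given as description. For BMP2 they were DOCK1 (r = 0.966), BTBD7 (0.958) and ZNF510 (0.948), and for BMP4 TSC22D4 (0.948), CRTAP (0.927) and RARG (0.925). BMP5 was matched by SLIT1 (r = 0.992), CCDC127 (0.992) and VPS16 (0.984). BMP6 was closest to CLSTN3 (r = 0.971), TTLL5 (0.965) and CAMTA2 (0.961). BMP7 ran with SDK2 (r = 0.988), MRPL53 (0.985) and LEF1 (0.981), of which LEF1 encodes a factor of the WNT pathway. NOG was nearest to TSPAN6 (r = 0.951), EGFLAM (0.946) and NPC1 (0.941).

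Among the ID genes, ID2 had the closest matches: FZD10 (r = 0.995), which encodes a WNT receptor, LCORL (0.993) and ZBTB41 (0.986). ID4 was closest to CDK5RAP3 (r = 0.976), TERF2 (0.966) and SUV39H2 (0.954). ID1 was nearest to CSTF2T (r = 0.963), FAM124A (0.941) and CHCHD3 (0.898). ID3 had the weakest matches of the 10, HIC2 (r = 0.889), REXO4 (0.879) and PAFAH2 (0.865). BMP2, BMP5, BMP6 and NOG lay below the level asked of candidate genes, so they could not be found as matches. None of the other members was among the 3 nearest genes of another member.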

How the data were processed

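Directional mRNA libraries were read as single reads from 27 samples. The values are counts per gene in 8 tables that the authors deposited, made, per the processing notes, with bcl2fastq, cutadapt, HISAT2 and HTSeq. Genome build, annotation and strand setting are not given in the sources used here. All 27 columns were assigned to a group, and 0 were left over. Each comparison was fitted on its own groups with edgeR 4.0.16 (limma 3.58.1, R 4.3.3): low genes removed by filterByExpr, trimmed mean of M-values scaling, quasi-likelihood test, and Benjamini-Hochberg adjustment over all tested genes, with calls at an adjusted p under 0.05. Standard errors are the absolute log2 fold change over the square root of F. Replicates within groups differed by more than sampling, with a chi-square per gene of 3.98 to 29.8 over 36 pairs beside 1 from sampling alone. Scripts were tested on simulated data, and figures drawn with Python 3.11.15 and matplotlib 3.10.9.

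The alternatives were DESeq2 1.42.0, upper-quartile scaling, no filter, a filter of 10 or more counts per library, all 8 groups in 1 fit, a minimum absolute log2 fold change of 1, primed columns of letter J or K alone, a replicate block in the direct comparisons, and each library left out in turn. The members and all lists (5 lists of pathway genes by role and 8 of cell type markers, with 51 genes) were chosen with earlier results of these data known. Genes named were the 10 members; from each role list the 3 with the highest mean CPM and up to 2 with the largest absolute median log2 fold change over the 7 comparisons among genes tested in all 7; for each member the 3 most correlated genes; and from each marker list the most abundant gene and those at 0. NANOG and SOX2 levels, given for the label, were chosen after the values were seen. Gene positions came from the RefSeq table, in which 16871 of the 17967 symbols and all 10 members were found.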

Additional observations from a re-analysis of the deposited data

Results flagged for a closer look

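Among the 22 groups of primed values checked for 1 library far from the others, by the gap to the nearest value over the range, 3 passed the critical value. NOG in primed K2 stood apart at 0.725 of the range (0.968 CPM beside 0 to 0.266 CPM). The summed other BMP ligands stood apart in primed J3 at 0.727 (8.57 CPM beside 0.112 to 2.42 CPM), and the neural crest list in primed J3 at 0.884 (174 CPM beside 121 to 127 CPM).

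The 15 direct differences between protocols past the threshold were listed for a closer look, since no comparison with primed cells tests them. TL-CDK8i against TL2i gave log2 fold changes of −1.45 for BMP2, −3.89 for BMP5, −2.13 for BMP6, −0.77 for BMP7, −2.21 for NOG, 0.89 for ID1 and −1.63 for ID2. NHSM-v against E-NHSM gave 4.02 for BMP2, 7.53 for BMP5, 4.35 for BMP6, 3.05 for BMP7, 2.95 for NOG, −1.58 for ID1, 1.39 for ID2 and −1.38 for ID4. What sets them apart was not tested.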

How the results depend on the processing

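Of 88 member tests 71 were called: 56 calls held in every alternative that gave them a p (12 to 17 each), 15 were lost in at least 1, none changed sign, and 9 of the 17 others passed somewhere. Of 166 tests of the named pathway genes, whose alternatives were added after the data were seen, 124 were called, 51 of them were lost in at least 1 setting and none changed sign, and 29 of the 42 others passed somewhere. Every call with an absolute log2 fold change under 1 was lost under a minimum of 1, which left fewer genes called: 1209 in E-NHSM, 4560 in NHSM-v, 3928 in 4i/L/b, 3336 in TL2i, 4298 in t2iLGöY, 4354 in LCDM, 2584 in TL-CDK8i, 3848 in TL-CDK8i against TL2i and 5537 in NHSM-v against E-NHSM. With all 8 groups in 1 fit E-NHSM had 5255 genes and 17 pathway genes called, and TL-CDK8i 31 pathway genes. Against K columns alone E-NHSM had 5 members and 15 pathway genes called. Asking for at least 10 counts in every library tests fewer genes and left 6 members called in NHSM-v, 5 in 4i/L/b, 6 in TL2i, 5 in t2iLGöY, 5 in LCDM, 4 in TL-CDK8i and 5 in NHSM-v against E-NHSM, and 16 pathway genes in 4i/L/b, 13 in TL2i and 17 in t2iLGöY. Values that reversed were all past no threshold in the main fit. Against J columns alone these were, in E-NHSM, BMP2 −0.33, ID4 0.88, BMPR1A 0.065, SMURF2 0.0075 and SMAD7 −0.23, in 4i/L/b ID4 0.66 and in t2iLGöY FSTL1 0.014. Against K columns alone TL2i gave −0.11 for ACVR2B and −0.028 for BMPR1A. Upper-quartile normalization gave 0.00056 for BMPR1A in E-NHSM, and at least 10 counts in every library 0.0076 for FSTL1 in t2iLGöY. With 1 library left out, the values that crossed 0 ran, in E-NHSM, from −0.81 to 0.57 for BMP2, −0.40 to 0.17 for ID2, −1.10 to 1.12 for SMAD9, −0.045 to 0.12 for SMAD7 and −0.073 to 0.48 for CHRD. They ran from −0.040 to 0.056 for ACVR2B in TL2i, −0.082 to 0.0062 for FSTL1 in t2iLGöY, −0.61 to 1.17 for TFAP2A in TL-CDK8i, −0.11 to 0.19 for ID3 and −0.20 to 0.050 for RGMB in TL-CDK8i against TL2i, and −0.42 to 0.43 for BMP4 and −0.010 to 0.37 for ID3 in NHSM-v against E-NHSM. The cause was not tested. Equal replicate numbers did not pair in the 2 direct comparisons (correlations −0.127 to 0.011 over 6 pairs), and with a replicate block 8420 genes were called in TL-CDK8i against TL2i and 8787 in NHSM-v against E-NHSM. Depth limits NOG, BMP2, BMP5 and BMP6, whose primed counts were 17, 58, 0 and 40 in all.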
